A study of Mus musculus with 12 samples.

Results

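CD11c+MHCII+ and CD11c-MHCII+ cells of the mouse synovium were compared after 4 h of exposure to calcitonin gene-related peptide (CGRP). The 3 libraries titled CD11c with CGRP were set against the 3 titled IAIE with CGRP, so that 6 of the 12 libraries of the series entered the comparison. IAIE is the label for the CD11c- cells, which were sorted on the MHC class II molecules I-A and I-E. The mice were wild-type (C57BL/6 in the labels). The peptide, at 100 nM, was given to intact synovial tissue in culture and not to sorted cells, and vehicle took its place in the controls. All 4 groups share the dissection, the culture, the digestion and the sort. Mice of both sexes were used throughout the study, and neither the age nor the number of animals behind each library is given in the labels. The other 6 libraries, 3 of each subset kept without CGRP and titled Healthy, serve here only to ask whether a difference between subsets depended on the peptide.

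CGRP is released by sensory nerve endings, including the pain fibers of the joint. Its receptor joins the calcitonin receptor-like receptor, encoded by *Calcrl*, to the accessory protein RAMP1, and signals through cyclic AMP, whereas RAMP2 and RAMP3 turn the same protein into adrenomedullin receptors. MHC class II molecules present peptides to CD4+ T cells. CD11c, an integrin chain encoded by *Itgax*, is carried by most dendritic cells and by some tissue macrophages, so that a CD11c+MHCII+ gate can hold both.

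The 6 CGRP libraries held between 4009081 and 5649698 counts, and 3 counts, taken as the floor of detection, corresponded to between 0.534 and 0.794 CPM (counts scaled to the normalised library total). Spearman's rho across genes lay between 0.952 and 0.968 within a group and between 0.911 and 0.925 between subsets. The first principal component of these libraries took 48.1% of their variance, and on that of all 12 libraries the subsets lay on opposite sides of 0. Nothing in the labels says whether libraries of a group came from separate animals, so p-values measure the spread between libraries, which may in part be technical. In bulk RNA, fewer cells of a type and less RNA per cell cannot be told apart.

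The sort markers were examined first. *Itgax* (mm10, chromosome 7, 128129547 to 128150657) stood at 9.53, 1.70 and 4.90 CPM in the IAIE libraries and at 118, 107 and 121 CPM in the CD11c libraries. The groups were far apart, with a log2 difference (CD11c minus IAIE) of 4.44 ± 0.38 (SE, edgeR adjusted p 1.24e-07), or 5.06 without IAIE replicate 1. Of the 31-base words in its transcripts, 10.7% also occur in *Itgad*, so part of its counts may belong to that neighbor. *H2-Ab1*, which encodes a class II beta chain, was present in both subsets, at 2341, 2571 and 2085 CPM in IAIE and 6625, 7231 and 6222 CPM in CD11c libraries. Its log2 difference was 1.52 ± 0.12 (edgeR adjusted p 2.94e-08), and those of *H2-Aa* and *H2-Eb1* were 1.44 ± 0.13 and 1.59 ± 0.12. The RNA went with both sort labels, and the subsets also differed in their level of MHC class II transcripts.

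Of 11927 genes tested, 2012 differed between the subsets with CGRP (16.9%), 997 higher in CD11c cells (8.36%) and 1015 lower (8.51%). The median absolute log2 difference of these genes was 1.02, and 1028 differed by at least 1 log2 unit. Large differences lay mostly on the CD11c side, where 110 genes were higher by at least 3 log2 units against 27 that were lower. For 4146 genes (34.8%), whether they passed the test or not, every library of one subset lay beyond every library of the other. The median log2 difference over all tested genes was 0.0022.

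**Figure D1:**
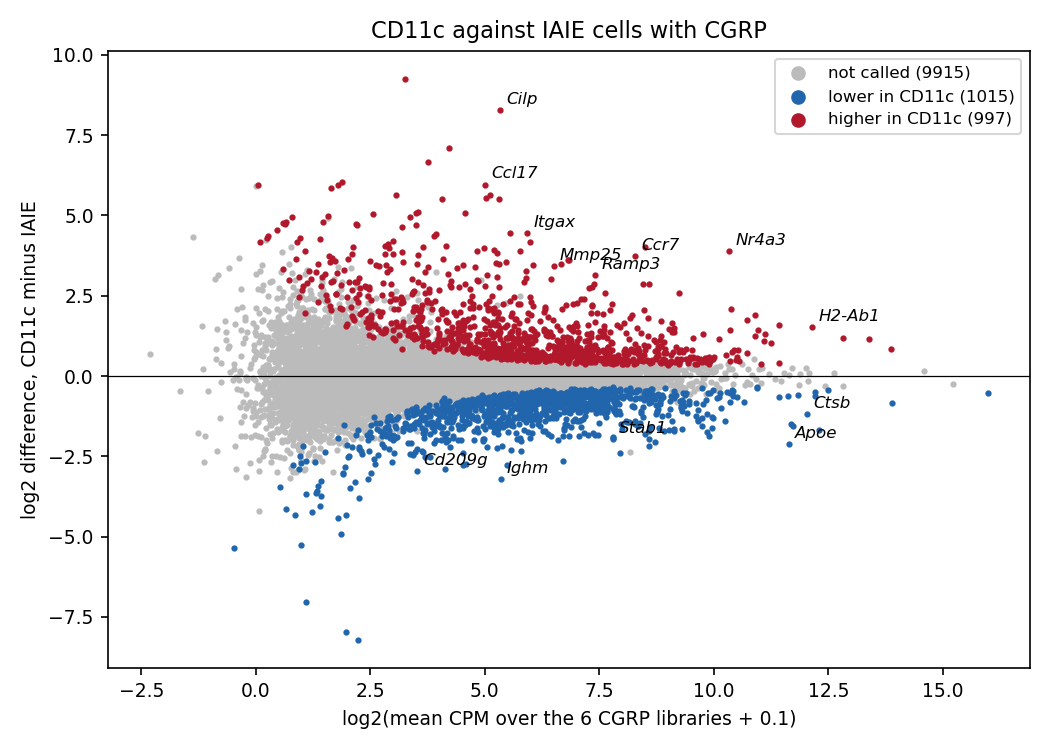
Each point is a tested gene, placed by its log2 mean CPM over the 6 CGRP libraries (x axis, log2 scale) and its log2 difference, CD11c minus IAIE (y axis). Red marks the 997 genes higher and blue the 1015 lower in CD11c cells, and large differences such as those of *Ccl17* and *Itgax* lie above 0.

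The strongest evidence for a difference was in *Nr4a3*, an orphan nuclear receptor that is rapidly induced by cyclic AMP and other stimuli (chromosome 4, 48045153 to 48086447). It was at 134, 213 and 149 CPM in IAIE and at 2356, 2697 and 2238 CPM in CD11c cells, a log2 difference of 3.88 ± 0.16 (edgeR adjusted p 1.55e-11). *Ramp3* (chromosome 11, 6658521 to 6677475) followed, with 33.6, 37.2 and 33.4 CPM in IAIE and 275, 333 and 312 CPM in CD11c cells. Its log2 difference was 3.14 ± 0.15 (edgeR adjusted p 5.64e-11). In neither gene did the groups come near each other. The chemokine receptor *Ccr7*, which leads cells toward lymph nodes, was at 33.1, 53.2 and 44.3 against 515, 594 and 618 CPM, 3.72 ± 0.19 higher on the log2 scale in CD11c cells (edgeR adjusted p 2.95e-10). The other 7 genes with the smallest p on this side were the motor protein *Myo1g*, the lysophospholipid receptor *P2ry10*, the metalloproteinase *Mmp25*, the survival gene *Bcl2a1d*, the actin-binding *Tmsb4x*, the vitamin D receptor *Vdr* and the death gene *Pmaip1*. Their log2 differences ran from 1.89 for *Tmsb4x* to 3.45 for *P2ry10*. *Bcl2a1d* shares 89.1% of its words with other genes, mostly *Bcl2a1a*, so the family member cannot be told from the counts.

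Among genes with the largest differences, *Ccl17*, a chemokine that attracts T cells, stood at 0.529, 1.21 and 1.13 CPM in IAIE and at 52.5, 43.6 and 92.3 CPM in CD11c cells (log2 difference 5.96 ± 0.45, edgeR adjusted p 2.71e-08). *Dcstamp*, which encodes a fusion protein of osteoclasts and giant cells, was at 0.794, 0 and 2.83 against 62.9, 65.8 and 74.0 CPM. Its log2 difference was 5.63 ± 0.45, or 7.36 without IAIE replicate 3. The killer-cell lectin-like receptor *Klri1* was at 0, 0 and 0.754 against 20.7, 9.90 and 18.0 CPM. Its log2 difference of 5.63 ± 0.75 moved to 9.0 without IAIE replicate 3, and 15.3% of its words occur in *Klri2*. The 7 other genes in this group, *Cilp2*, *Cilp*, *Tnfrsf11b*, *Mgp*, *Col6a3*, *Comp* and *Thbs4*, include matrix and cartilage genes and are described with the matrix lists.

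On the IAIE side, the 10 genes with the smallest p had log2 differences from -3.21 for *Ighm* to -1.19 for *Ctsb*. *Hk3*, the hexokinase of myeloid cells, was at 511, 641 and 534 CPM in IAIE and 167, 169 and 144 CPM in CD11c cells, a log2 difference of -1.82 ± 0.13 (edgeR adjusted p 1.85e-08). The ATP-gated channel *P2rx7* (-1.91 ± 0.14), the C5a receptor *C5ar1* (-1.77 ± 0.14) and the scavenger receptor *Stab1* (-1.97 ± 0.15) were lower as well. For *C5ar1* the levels were 213, 214 and 235 against 75.6, 56.2 and 61.7 CPM. The remaining members of this group were *Fnip2*, *Ctsb*, *Mtmr10*, *Cd63*, *Blnk* and *Ighm*. *Ctsb*, the protease cathepsin B, was at 5872, 6255 and 5497 CPM in IAIE and at 2643, 2699 and 2387 CPM in CD11c cells. The groups did not overlap for any of these genes, which the rule for naming them required.

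**Figure D2:**
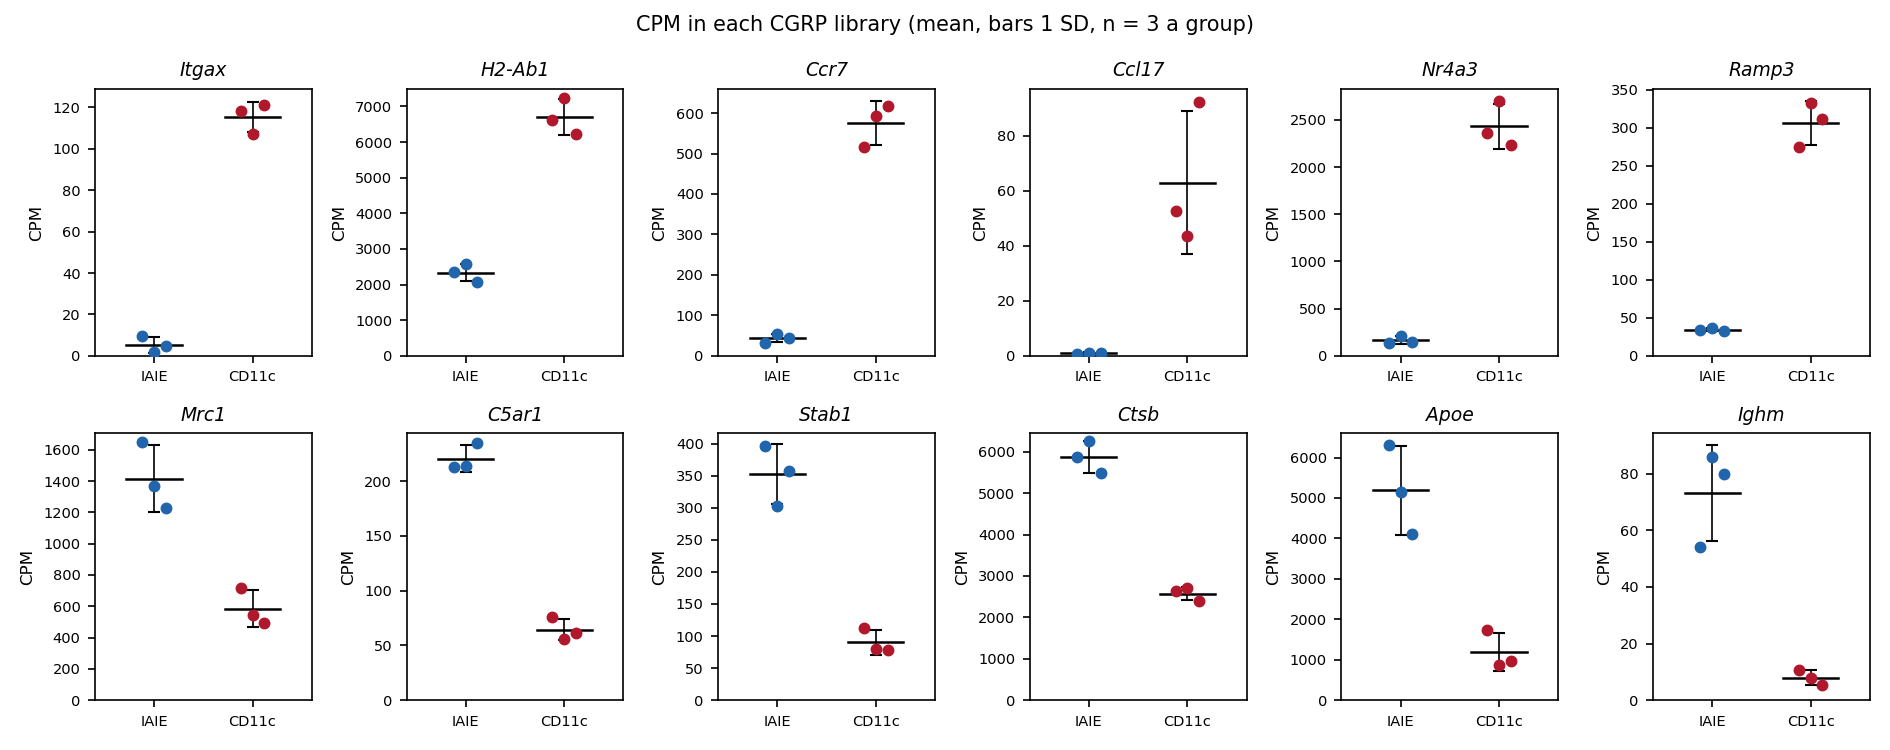
CPM of 12 genes in each CGRP library (y axis from 0, one panel per gene), with IAIE libraries in blue and CD11c libraries in red, and the mean with bars of 1 SD (n = 3). In the upper row every CD11c library lies above every IAIE library, and in the lower row below.

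Macrophage genes were lower in CD11c cells, though still present. Of 16 macrophage identity genes tested, 13 were lower and none higher in CD11c cells, with a median log2 difference of -1.24. *Apoe*, which encodes the lipid carrier apolipoprotein E, was at 6321, 5137 and 4111 CPM in IAIE and at 1725, 873 and 977 CPM in CD11c cells (-2.12 ± 0.22, edgeR adjusted p 1.00e-06). *Cd68* (-1.22 ± 0.12) and the growth factor receptor *Csf1r* (-1.26 ± 0.15) were lower too, and 15.1% of the exon bases of *Csf1r* are covered by exons on the other strand. *Lyz2*, which encodes lysozyme, and the co-receptor *Cd14* did not pass (-0.16 ± 0.15 and 0.08 ± 0.13). *Mertk* missed the threshold as well (-0.92 ± 0.34, edgeR adjusted p 0.0716).

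Of 12 interstitial macrophage genes, 11 were lower and 1 was higher, a median of -1.80. *Stab1*, the coagulation factor *F13a1* (-1.76 ± 0.16), the platelet factor *Pf4* (-1.97 ± 0.22) and the mannose receptor *Mrc1* (-1.27 ± 0.16) were lower in CD11c cells. *Retnla*, known from alternatively activated macrophages, was the exception, at 238, 254 and 204 CPM in IAIE and 414, 425 and 359 CPM in CD11c cells (0.78 ± 0.12, edgeR adjusted p 1.27e-04). Among 8 genes of lining macrophages, *Lyve1* (-1.42 ± 0.23), *Folr2* (-1.61 ± 0.27) and *Trem2* (-1.18 ± 0.22) were lower. These are not particular to this list, as *Lyve1* and *Folr2* are also in the interstitial list and *Trem2* in the macrophage identity list. *Cx3cr1*, *Vsig4*, *Sparc* and *Axl* did not pass. *Timd4* was higher (0.82 ± 0.28, edgeR adjusted p 0.0463), a call lost without any of 6 libraries in turn, namely IAIE control replicate 2, CD11c control replicate 3, IAIE CGRP replicates 2 and 3 and CD11c CGRP replicates 1 and 3 (log2 differences from 0.55 to 0.91). Exons on the other strand cover 63.1% of the exon bases of *Folr2*, and the strand setting of the counting is not given.

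Dendritic cell genes moved the other way, most of all those of mature dendritic cells. Of 11 such genes, 10 were higher in CD11c cells and none lower, a median of 3.35. The count of higher genes was 8 to 10 when 1 library was left out. Without CGRP 9 were higher and none lower, a median of 2.52. *Cd80*, *Cd83* and *Cd40* are also in the costimulation list, and *Relb* is in the NF-kB list. Besides *Ccr7* and *Ccl17*, the 10 genes higher with CGRP included the chemokine *Ccl22*. It was at 26.2, 32.3 and 67.1 CPM in IAIE and 616, 661 and 770 CPM in CD11c cells (4.01 ± 0.33, edgeR adjusted p 7.54e-08). The signaling inhibitor *Socs2* was higher by 3.35 ± 0.37, the actin bundler *Fscn1* by 3.50 ± 0.48 and the costimulatory ligand *Cd80* by 1.96 ± 0.23. *Cd86*, another costimulatory ligand, did not pass (0.18 ± 0.13, edgeR adjusted p 0.427). Of 9 general dendritic cell genes, 4 were higher and none lower. The 4 include *Ciita*, also in the MHC class II list, and *Kit*, also in the mast cell list. Another of them lost its call without any one of IAIE replicates 1 to 3 or CD11c replicate 1. *Zbtb46*, a transcription factor of conventional dendritic cells, was at 10.9, 12.9 and 8.49 CPM in IAIE and 57.7, 54.0 and 69.4 CPM in CD11c cells (2.5 ± 0.26, edgeR adjusted p 1.28e-06). *Flt3*, which encodes their growth factor receptor, was near the floor, at 3.44, 1.70 and 0.943 against 4.60, 1.49 and 7.29 CPM, and did not pass (edgeR adjusted p 0.202).

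Markers of the conventional dendritic cell types were called in both directions, where 8.36% of all tested genes were higher and 8.51% lower. Among 6 genes of type 1 cells, *Cd24a* was higher (1.79 ± 0.20) and *Irf8*, a transcription factor on which these cells depend, was lower, at 75.2, 71.9 and 61.1 CPM in IAIE and 27.0, 15.8 and 19.0 CPM in CD11c cells (-1.74 ± 0.19, edgeR adjusted p 2.33e-06). *Clec9a* was too low to be tested. Among 7 genes of type 2 cells, the lectin *Cd209a* (1.19 ± 0.19) and the transcription factor *Irf4* (0.76 ± 0.15) were higher. The labels call all sorted cells macrophages. In these libraries the CD11c cells carried macrophage genes at a lower level and mature dendritic cell genes at a higher level than IAIE cells, and how many cells of each kind they held was not tested.

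Markers of other cell types were read beside these results. Of 8 B cell genes, 7 were lower in CD11c cells and none higher, and their summed level lay between 87.3 and 143 CPM in the IAIE libraries and between 11.7 and 22.1 CPM in the CD11c libraries. *Ighm*, which encodes the heavy chain of immunoglobulin M, made up much of it, at 54.0, 85.8 and 79.8 against 10.5, 7.92 and 5.34 CPM (-3.21 ± 0.27, edgeR adjusted p 1.09e-07). *Fcmr*, the receptor for that immunoglobulin, had 0 counts in every CD11c library and 6.35, 5.83 and 10.7 CPM in IAIE cells, at least 12.4-fold lower in CD11c cells against the floor of 3 counts per library. *Cd79a* and *Bank1*, signaling proteins of B cells that were among the 10 largest differences on the IAIE side, were lower by log2 -3.02 ± 0.73 and -2.67 ± 0.46. The log2 difference of *Cd79a* was -3.86 without CD11c replicate 2 and -2.39 without CD11c replicate 3, and that of *Bank1* was -3.49 without CD11c replicate 1. Among T and NK cell genes only *Cd4* could be tested, and it did not pass (log2 difference -2.38).

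Other lists of cell types were read beside the shares of all tested genes, 8.36% higher and 8.51% lower. Of 10 monocyte genes, 2 were higher, *F10* and *Fn1*, which is also in the matrix list. The summed level of the monocyte list lay between 862 and 2010 CPM in IAIE and between 2887 and 3305 CPM in CD11c libraries. Of 9 neutrophil genes 2 were lower, or 5 in the compared libraries alone with the block. Of 7 mast cell genes, *Kit* was called higher, a gene that is also in the dendritic cell list, and all 7 were higher in the compared libraries alone with the block. Their summed level lay between 12.3 and 70.4 CPM in IAIE and between 84.2 and 142 CPM in CD11c libraries. Of 8 endothelial genes 1 was higher (0 to 2 when 1 library was left out), of 6 osteoclast and bone genes 2 were higher and 1 lower (1 higher without any IAIE replicate or CD11c replicate 1 or 3), and no muscle, fat or erythroid gene passed of 3, 4 and 5 tested.

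The others of those 10 largest differences were *Cd209g*, *Vcam1*, *Ccl12*, *Ms4a14*, *Cd209f*, *B3galnt1* and *Ifi208*. The adhesion molecule *Vcam1*, an integrin ligand, was at 25.4, 44.2 and 22.1 CPM in IAIE and at 1.53, 8.66 and 2.67 CPM in CD11c cells (-2.88 ± 0.44, edgeR adjusted p 1.06e-04), or -3.82 without CD11c replicate 2. The lectins *Cd209g* (-2.97 ± 0.46) and *Cd209f* (-2.73 ± 0.45) and the chemokine *Ccl12* (-2.77 ± 0.43) were lower too, and without CD11c replicate 1 these values were -3.86, -3.77 and -3.61. *Cd209f* shares 36.3% of its words with *Cd209g*, and *Ifi208* 34.0% with other genes, so their counts may be split between copies.

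Genes of the MHC class II pathway were higher in CD11c cells for 8 of 11 tested, with 1 lower and a median of 1.44. Part of this list was used in the sort. The invariant chain *Cd74* was at 6060, 7602 and 6345 CPM in IAIE and at 13884, 16464 and 13952 CPM in CD11c cells (1.15 ± 0.12). *Ciita*, the master regulator of the pathway, was higher by 1.69 ± 0.27, and the peptide-loading chains *H2-DMa*, *H2-DMb1* and *H2-DMb2* by 0.99 ± 0.20, 1.69 ± 0.21 and 2.56 ± 0.41. *H2-Oa* and *H2-Ob*, which restrain peptide loading, did not pass (0.30 ± 0.79 and 0.05 ± 0.35). The protease *Ctss* was lower, at 1665, 1663 and 1458 against 1300, 1073 and 1115 CPM (-0.46 ± 0.11, edgeR adjusted p 0.00627). Of 13 class I genes, 1 was higher and 1 lower, a median of 0.0351, and the counts ran from 0 to 2 and from 0 to 1 when 1 library was left out.

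Promoters of class II genes carry a Y box, a CCAAT element, and the windows of *H2-Aa* and *H2-Eb1* are shown because these members differed together. They span 250 bases before to 50 after the start site (RefSeq, GRCm38.p6), H2-Aa at chr17:34287774-34288073 on the minus strand and H2-Eb1 at chr17:34305617-34305916 on the plus strand, and capitals mark CCAAT or its reverse complement ATTGG.
H2-Aa: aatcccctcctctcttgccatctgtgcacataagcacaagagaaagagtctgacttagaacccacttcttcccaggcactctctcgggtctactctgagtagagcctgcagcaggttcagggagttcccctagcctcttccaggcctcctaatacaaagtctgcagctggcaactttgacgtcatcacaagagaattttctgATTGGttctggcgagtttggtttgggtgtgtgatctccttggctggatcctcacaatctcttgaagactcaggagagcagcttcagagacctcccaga
H2-Eb1: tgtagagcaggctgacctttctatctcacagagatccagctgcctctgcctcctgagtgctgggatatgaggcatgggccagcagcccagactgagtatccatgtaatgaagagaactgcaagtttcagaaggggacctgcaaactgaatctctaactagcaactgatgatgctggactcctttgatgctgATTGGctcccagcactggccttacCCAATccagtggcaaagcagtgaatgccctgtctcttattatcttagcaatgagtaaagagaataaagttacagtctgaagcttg
The letters occurred on either strand in 7 of the 8 listed genes with a window, against 42.6% of 8811 tested genes with one and 37.4% of all 32544 windows. *H2-Oa* and *H2-Ob*, which did not differ beyond the threshold, carried them too.

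The receptor for CGRP itself was read next. Of 4 tested genes of the CGRP and adrenomedullin receptor list, *Ramp3* was called. *Calcrl* (chromosome 2, 84330626 to 84425411) was at 28.6, 32.6 and 26.2 CPM in IAIE and 37.0, 45.8 and 41.5 CPM in CD11c cells. Its groups did not overlap, yet the difference did not pass (0.51 ± 0.22, edgeR adjusted p 0.131). *Ramp2* and *Calcr* were too low to be tested. *Ramp1* (chromosome 1, 91179822 to 91225196) was low in both, at 2.12, 3.64 and 2.83 against 9.40, 3.71 and 5.69 CPM (1.13 ± 0.43, edgeR adjusted p 0.0836). Its groups did not overlap either, though by a narrow margin (3.71 against 3.64 CPM). Without CGRP, 2 genes of this list were called higher in CD11c cells and none lower, a median of 1.06.

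Of 13 genes of the cyclic AMP response, 6 were higher and 1 lower in CD11c cells, a median of 0.47. After *Nr4a3* came its relative *Nr4a2* (1.38 ± 0.20), the repressor *Crem* (0.95 ± 0.15) and the phosphodiesterase *Pde4b* (0.63 ± 0.13). *Crem* was at 49.5, 61.7 and 61.1 CPM in IAIE and 97.6, 117 and 120 CPM in CD11c cells. *Fos* was lower, at 667, 511 and 480 against 409, 343 and 313 CPM (-0.64 ± 0.14, edgeR adjusted p 0.00322). Without CGRP, 5 genes of this list were higher in CD11c cells and 2 lower, a median of 0.16. None of them passed the test of a change in the subset difference with CGRP. The letters of the palindromic cyclic AMP response element, TGACGTCA, lay in the windows of 2 of the 9 listed genes with one, *Areg* and *Dusp1*, and in 3.61% of tested genes with a window. Neither gene passed (log2 differences -0.42 and -0.26). Only this full form was searched, so shorter or variant forms in the windows of other genes were not counted. The *H2-Aa* window printed above holds the same letters, unmarked there.

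Genes of the NF-kB pathway, which drives inflammatory transcription, were higher in CD11c cells for 11 of 16 tested and lower for none, a median of 0.61. The subunit *Rel* was at 159, 167 and 180 CPM in IAIE and 530, 649 and 574 CPM in CD11c cells (1.79 ± 0.14, edgeR adjusted p 3.18e-08). *Nfkb1* was at 450, 483 and 427 against 914, 1140 and 1065 CPM (1.2 ± 0.11), and *Nfkb2* was higher by 1.0 ± 0.13. The adaptor *Traf1* (1.53 ± 0.16) and the inhibitory protein *Tnip3* (1.64 ± 0.17) rose with them. *Rela*, the partner of *Nfkb1* in the classical dimer, did not pass (0.24 ± 0.13, edgeR adjusted p 0.261). Without CGRP, 11 genes of this list were also higher and none lower, a median of 0.53. Only *Nfkb1* passed the test of a change in the subset difference with CGRP.

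Inflammatory cytokines and chemokines were split between the subsets. *Il1b* was higher in CD11c cells, at 583, 855 and 915 CPM in IAIE and 2434, 3237 and 2156 CPM in CD11c cells (1.73 ± 0.18, edgeR adjusted p 8.24e-07). *Tnf* was lower, at 423, 569 and 349 against 170, 209 and 133 CPM (-1.39 ± 0.18, edgeR adjusted p 1.21e-05). Over 19 tested cytokines and antagonists, 4 were higher and 4 lower, with 2 higher under the replicate block of all libraries and 1 or 2 without any one of IAIE replicates 1 to 3 or CD11c replicate 1. *Osm* (-1.13 ± 0.16) and the interleukin-1 antagonist *Il1rn* (-0.61 ± 0.14) were on the lower side. *Il33* was called higher through a single library, at 4.76, 3.16 and 3.02 CPM in IAIE and 90.7, 3.22 and 3.91 CPM in CD11c cells. Its log2 difference of 3.17 ± 0.98 became -0.020 without CD11c replicate 1, and its call was also lost without IAIE replicates 1 (3.41), 2 (3.07) or 3 (3.04).

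Of 13 CC chemokines, 4 were higher and 6 lower, and without IAIE replicate 1 the former count was 2. The monocyte attractants *Ccl2* (-1.71 ± 0.20) and *Ccl7* (-2.40 ± 0.31) and the macrophage inflammatory proteins *Ccl3* (-1.41 ± 0.20) and *Ccl4* (-2.17 ± 0.33) were lower in CD11c cells. *Ccl2* was at 595, 611 and 554 CPM in IAIE and 226, 178 and 135 CPM in CD11c cells. Of 14 CXC and other chemokines, 4 were higher and 4 lower, and without CD11c replicate 3 both counts were 2, as was the higher one without IAIE replicate 2. Neutrophil attractants of the CXC family were divided, with *Cxcl3* higher (1.03 ± 0.16) and *Cxcl1* (-0.77 ± 0.17) and *Cxcl2* (-0.63 ± 0.18) lower. The call for *Cxcl2* was lost without IAIE replicate 2 (-0.41) and without CD11c replicates 1 (-0.47) or 3 (-0.60).

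Innate sensing and degradation genes were lower in CD11c cells. Of 15 tested genes of Toll-like receptors, *Cd14* and accessory proteins, 8 were lower and none higher, a median of -0.99. Those 8 included *Cd180*, *Ly86* and *Unc93b1*, which are not Toll-like receptors. The count of lower genes was 5 without IAIE replicate 1 or without CD11c replicate 2. The nucleic acid sensors *Tlr7* (-1.57 ± 0.23) and *Tlr9* (-1.35 ± 0.20) were lower, while *Tlr4*, the endotoxin receptor, did not pass (0.01 ± 0.18). Of 20 complement genes, 9 were lower and 1, *Itgax* itself, was higher, a median of -1.07. Besides *C5ar1*, they included the receptor *C3ar1* (-0.93 ± 0.11) and *C4b* (-1.86 ± 0.25), of whose words 48.3% also occur elsewhere, mostly in *C4a*. Of 20 lysosomal genes, 14 were lower and none higher, a median of -0.67. The cathepsins *Ctsl* (-1.69 ± 0.18) and *Ctsa* (-1.14 ± 0.13) and the membrane proteins *Cd63* (-1.51 ± 0.14) and *Lamp1* (-0.84 ± 0.11) were among them.

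Interferon-induced genes were lower for 11 of 25 tested and higher for none, a median of -0.75. They also varied between libraries of a subset. *Rsad2*, the antiviral protein viperin, was at 5730, 6601 and 2817 CPM in IAIE and 2068, 2176 and 854 CPM in CD11c cells (-1.57 ± 0.33, edgeR adjusted p 0.00184). Replicate 3 was the lowest in both subsets. *Iigp1* (-2.19 ± 0.29) and *Oas2* (-1.86 ± 0.25) differed by more. The count was 7 without IAIE replicate 2, 6 without CD11c replicate 3 and 18 in the compared libraries alone with the replicate number as a block.

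Glycolysis and hypoxia genes were higher for 13 of 28 and lower for 2, a median of 0.44. *Pfkp*, *Gpi1* and *Ero1a* were higher by 0.80 ± 0.12, 0.75 ± 0.14 and 1.12 ± 0.20, and *Hk3* was the larger exception. The other, *Pfkfb3* (-0.47), lost its call without IAIE replicate 1 or CD11c replicates 2 or 3. The lipase *Lpl*, at 34.9, 44.0 and 46.2 CPM in IAIE and 228, 300 and 321 CPM in CD11c cells (2.76 ± 0.24, edgeR adjusted p 1.36e-07), led a lipid list that was otherwise split, with 5 genes higher and 7 lower. Heme oxygenase *Hmox1* (-0.84 ± 0.11) and the iron exporter *Slc40a1* (-1.71 ± 0.19) were lower. Of 18 metalloproteinases and their inhibitors, 7 were higher and 2 lower, a median of 1.08. *Mmp12*, the macrophage elastase, was at 92.9, 83.6 and 99.9 against 627, 677 and 705 CPM (2.86 ± 0.20, edgeR adjusted p 1.31e-08), whereas *Mmp9* was lower (-2.37 ± 0.45). Mitochondrial transcripts were lower for 8 of 16 and took between 10.97% and 12.6% of the counts in IAIE and between 8.78% and 10.02% in CD11c libraries. The part of this shift in other differences was not tested.

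Calls for surface receptors went in both directions within each list. Of 22 C-type lectins, 6 were higher and 6 lower in CD11c cells. *Clec7a*, the receptor for fungal beta-glucan known as dectin-1, was at 65.4, 142 and 146 CPM in IAIE and 289, 376 and 397 CPM in CD11c cells (1.58 ± 0.25, edgeR adjusted p 1.34e-04). *Ly75*, the endocytic receptor DEC-205 of dendritic cells, was at 2.38, 5.10 and 12.6 against 64.4, 77.2 and 104 CPM (3.55 ± 0.48), or 4.43 without IAIE replicate 3. Of 19 scavenger and apoptotic cell receptors, 7 were lower and 1, *Timd4*, was higher, and the lower ones included the hemoglobin receptor *Cd163* (-1.57 ± 0.19) and *Msr1* (-1.84 ± 0.20). The costimulation and checkpoint list had 4 of 14 genes higher and 3 lower, or 1 lower without IAIE replicate 1 or CD11c replicate 3. The checkpoint ligand *Pdcd1lg2*, at 3.18, 2.43 and 7.54 CPM in IAIE and 64.8, 64.1 and 77.9 CPM in CD11c cells, was higher by 3.92 ± 0.38, or 4.61 without IAIE replicate 3. Of 23 integrins and adhesion molecules, 7 were higher, among them the sort marker *Itgax* itself, and 4 lower. The selectin ligand *Selplg* was at 1.68 ± 0.15 and *Itga9* at -1.71 ± 0.24. Of 8 Fc receptors, 1 was higher and 3 lower, namely *Fcgr1*, *Fcgrt* and *Fcmr*, the last also in the B cell list. The higher one, *Fcgr2b* (0.41), lost its call with 1 surrogate variable and when any one of 6 libraries was left out, namely replicate 2 of either control group, IAIE replicates 1 and 2 and CD11c replicates 1 and 3 with CGRP (0.31 to 0.44). Of 13 chemokine receptors 2 were higher and 1 lower, and none was lower without IAIE replicate 1, IAIE replicate 2 or CD11c replicate 3.

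Growth factors were lower in CD11c cells for 6 of 20 tested and higher for 2, or for 1 without any one of the IAIE replicates. *Igf1*, a growth factor that tissue macrophages secrete, was at 99.0, 76.8 and 62.4 CPM in IAIE and 22.2, 12.4 and 12.99 CPM in CD11c cells (-2.31 ± 0.30, edgeR adjusted p 1.41e-05). Of 18 early response genes, 5 were lower and 1 was higher, and 8 were lower with a replicate block. *Jun*, a partner of Fos, was at 1505, 1201 and 1129 against 656, 481 and 538 CPM (-1.19 ± 0.16), and *Egr2* was higher (0.92 ± 0.17). Of 15 genes of alternative activation, 5 were higher and 3 lower, or 6 lower with a replicate block, and of 15 iron and antioxidant genes 3 were higher and 3 lower, or 6 lower in the compared libraries alone with the block. Without CD11c replicate 2 a single iron and antioxidant gene was higher, and without IAIE control replicate 3 the lower count was 5 in each of these lists. The arginine enzyme *Ass1* (2.39 ± 0.17) and the ribonuclease *Ear2* (2.98 ± 0.23) were higher, but 43.1% and 60.5% of their words occur in other genes. A single cell cycle gene of 19 passed, *Pcna* (-0.78 ± 0.17).

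**Figure D3:**
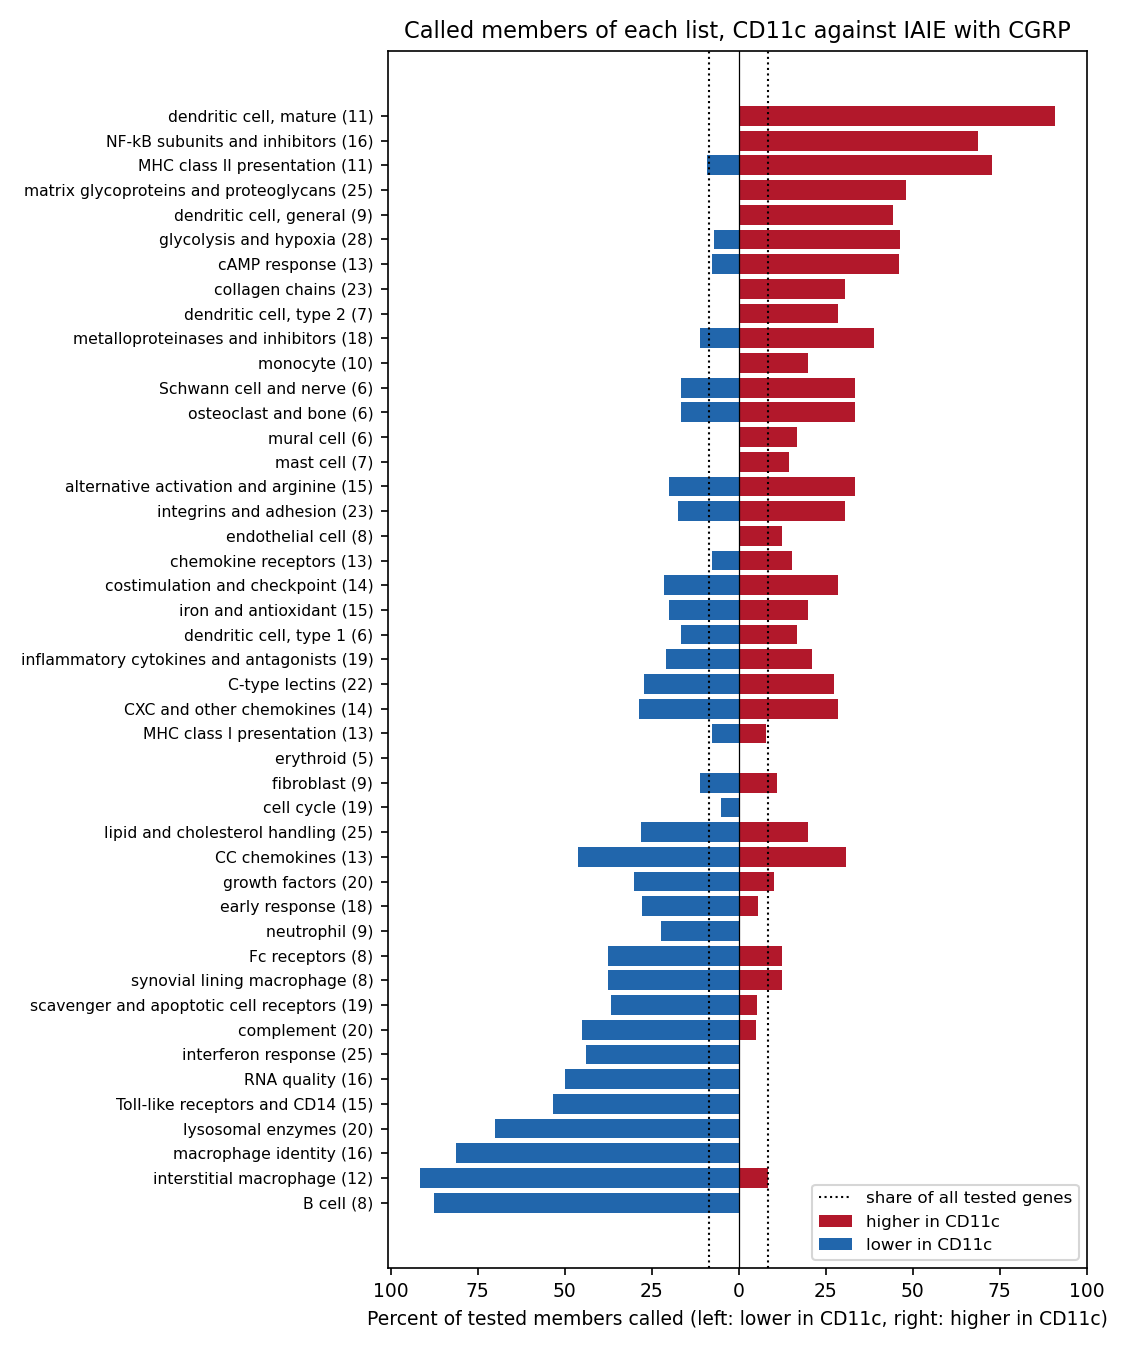
Percent of the tested members of each list (number in parentheses) that were called higher (red, right) or lower (blue, left) in CD11c cells with CGRP. Dotted lines mark the share of all tested genes, 8.36% to the right and 8.51% to the left, and mature dendritic cell genes (10 of 11 higher) and interstitial macrophage genes (11 of 12 lower) lie near the ends.

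Extracellular matrix genes had opposite median subset differences with and without CGRP. The test of the change passed for 7 of 25 matrix and 4 of 23 collagen genes, against 0.151% of all tested genes. The number it called over all genes, 18, ranged from 2 to 171 in the other fits. Of 25 matrix glycoproteins and proteoglycans tested, 12 were higher in CD11c cells with CGRP and none lower, a median of 1.39. Without CGRP 2 were higher and 8 lower, a median of -1.69. Of 23 collagen chains, 7 were higher and none lower with CGRP, against 1 and 10 without, with medians of 1.26 and -2.42. *Thbs4*, a thrombospondin of tendon and cartilage (chromosome 13, 92751590 to 92794818), was at 1.32, 0.486 and 0.377 CPM in IAIE and 24.5, 20.8 and 52.8 CPM in CD11c cells with CGRP (5.50 ± 0.63, edgeR adjusted p 3.90e-06), or 6.17 without IAIE replicate 1. Every CD11c library lay above every IAIE library.

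Most of these genes were uneven among the CD11c libraries. *Cilp*, a cartilage matrix protein (chromosome 9, 65265180 to 65280605), was at 60.6, 176 and 2.31 CPM in CD11c cells and at or under the floor in IAIE cells, at least 114-fold higher against that floor. *Cilp2* (12.8, 42.3 and 1.96 CPM), *Tnfrsf11b*, which encodes the decoy receptor osteoprotegerin (21.5, 83.7 and 4.27 CPM), and *Mgp*, an inhibitor of calcification (6.71, 69.3 and 3.74 CPM), were also at or under the floor in IAIE cells, and at least 27.4-, 52.4- and 38.2-fold higher. Without CD11c replicate 2 the bounds were 45.2-fold for *Cilp*, 10.6-fold for *Cilp2*, 18.5-fold for *Tnfrsf11b* and 7.5-fold for *Mgp*. In each of these the CD11c order was replicate 2, then 1, then 3. *Comp*, at 29.5, 195 and 6.58 CPM in CD11c cells, had a log2 difference of 5.52 ± 0.99, or 3.42 without CD11c replicate 2 and 6.63 without IAIE replicate 1. *Col6a3*, a chain of collagen VI, was at 2.38, 1.21 and 0.566 against 31.5, 127 and 30.2 CPM (5.55 ± 1.01), or 4.53 without CD11c replicate 2 and 6.15 without IAIE replicate 1. Limma-voom with quality weights called 5 matrix and 2 collagen genes higher in place of 12 and 7, and when every library had to hold 10 counts 2 were called in each list.

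Markers of stromal cells were read beside these genes. The summed level of the 9 tested fibroblast genes overlapped between subsets with CGRP. It ran from 570 to 2207 CPM in IAIE and from 462 to 768 CPM in CD11c libraries. Without CGRP these sums did not overlap, from 363 to 1544 CPM in IAIE and from 209 to 279 CPM in CD11c libraries. The fibroblast list had 1 gene higher and 1 lower with CGRP, a median of 0.07, and none higher and 5 lower without it, a median of -4.00. The medians of the mural list (1.34 with and -0.85 without CGRP) and of 2 chondrocyte genes (4.35 and -0.55) also changed sign. Most of the highest fibroblast sum came from *Prg4*, the lubricin of lining fibroblasts and cartilage surface, at 1433, 2.92 and 2.07 against 69.6, 197 and 17.6 CPM. *Col1a1* and *Pdgfra* did not pass (0.32 ± 0.75 and 0.07 ± 1.0), and *Dcn* was called higher (2.79 ± 0.69) but lost its call without CD11c replicate 2 (1.99), while the value was 3.97 without IAIE replicate 1. The 2 tested chondrocyte genes summed to between 0.729 and 4.23 CPM in IAIE libraries. In CD11c libraries they summed to 36.4, 198 and 7.12 CPM, mostly *Comp*, while *Acan* and *Col2a1* were too low to be tested. *Acta2*, of smooth muscle, was called higher in CD11c cells (3.46 ± 1.03), where it was at 78.2, 0 and 47.1 CPM. It lost its call without CD11c replicates 1 (2.62) or 3 (3.36) or IAIE replicates 2 (3.61) or 3 (2.90), and its value was 4.09 without IAIE replicate 1 and 4.05 without CD11c replicate 2. The part of such cells in the matrix genes was not tested.

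To ask which subset differences depended on CGRP, the same contrast was read in the libraries without it. There 2526 genes differed (21.2%), and 1390 were called in both conditions, which is 69.1% of the genes called with CGRP and 55.0% of those called without. Of these, 1377 had the same sign. A further 622 were called only with CGRP, of which 524 had the same sign without it and 4 passed a test of the change. The test of the change itself, the subset-by-CGRP interaction, called 18 genes (0.151%), and 1049 had an unadjusted p under 0.05. With treatment and replicate number together as a block, 52 were called, and the count fell to 6 when any one of 3 libraries was left out, which were replicates 2 and 3 of the CD11c controls and replicate 2 of the IAIE cells with CGRP. The difference between subsets in *Ccr7*, *Ccl17*, *Nr4a3*, *Ramp3* and *Apoe* was called in both conditions, with log2 differences without CGRP of 2.52, 5.79, 3.19, 3.57 and -1.99.

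**Figure D4:**
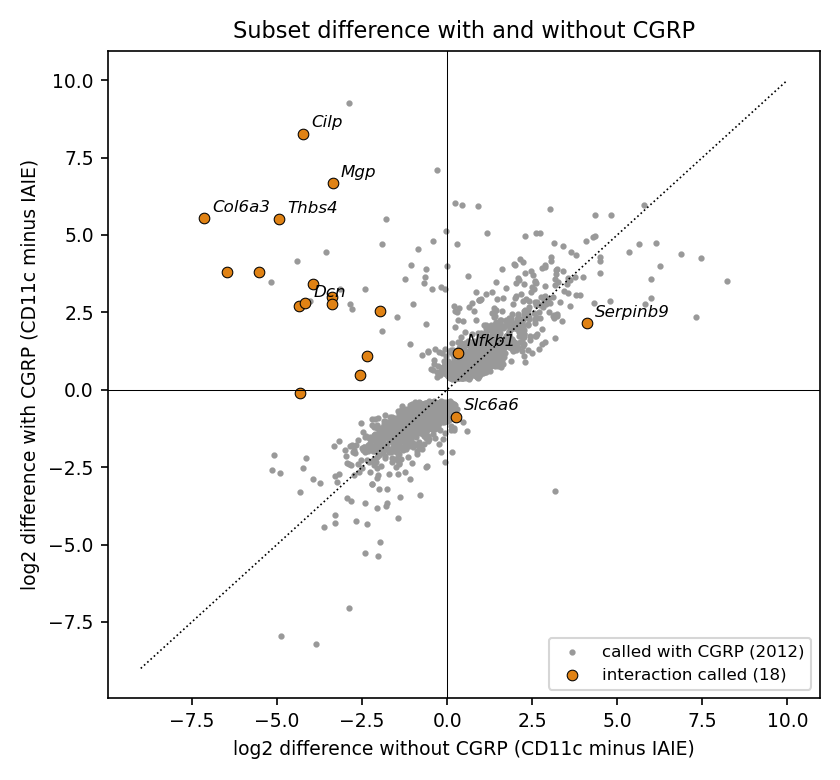
The 2012 genes called with CGRP (grey) and the 18 genes of the interaction (orange), placed by their log2 difference, CD11c minus IAIE, without CGRP (x axis) and with CGRP (y axis). Most grey points keep their sign, and *Thbs4*, *Col6a3* and *Cilp* lie at the upper left; the dotted line marks equal differences. Values of genes with libraries at 0 depend on the prior count.

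The 5 interaction genes with the smallest p on the positive side were *Thbs4*, *Col6a3*, *Col6a1*, *Col5a2* and *Dcn*. Without CGRP *Thbs4* was at 7.76, 9.17 and 11.2 CPM in IAIE and at 1.22, 0 and 0 CPM in CD11c cells, the reverse of the order with CGRP. *Col6a3* was at 5.58, 17.5 and 142 against 0.408, 0 and 0.644 CPM, with a wide spread in the IAIE control libraries. The edgeR adjusted p of the interaction was 2.74e-05 and 0.00133. *Thbs4*, *Col6a3*, *Col6a1*, *Col5a2* and the protease *Htra1* were called with opposite signs in the 2 conditions, which 13 genes were in all.

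Outside the matrix and collagen lists, the interaction was 6.15 for *Fstl1*, 4.49 for *Htra1* and 4.21 for *Serpinf1*. The taurine transporter *Slc6a6* was at 529, 589 and 577 CPM in IAIE and 689, 692 and 636 CPM in CD11c cells without CGRP, and at 649, 580 and 524 against 350, 338 and 274 CPM with it. The interaction was -1.12 ± 0.18 (edgeR adjusted p 0.00898). The granzyme inhibitor *Serpinb9* was higher in CD11c cells in both conditions, at 3.72, 6.88 and 7.16 against 80.4, 113 and 107 CPM without CGRP and at 26.7, 36.7 and 24.5 against 112, 114 and 162 CPM with it. The gap was therefore smaller with CGRP (-1.95 ± 0.34, edgeR adjusted p 0.0177). *Nfkb1* was at 852, 887 and 899 against 1099, 1067 and 1112 CPM without CGRP, and its gap was larger with it (0.88 ± 0.16, edgeR adjusted p 0.0180). *Cd209a*, *Rnh1* and *Dock2* had the next smallest p on the negative side and did not pass.

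**Figure D5:**
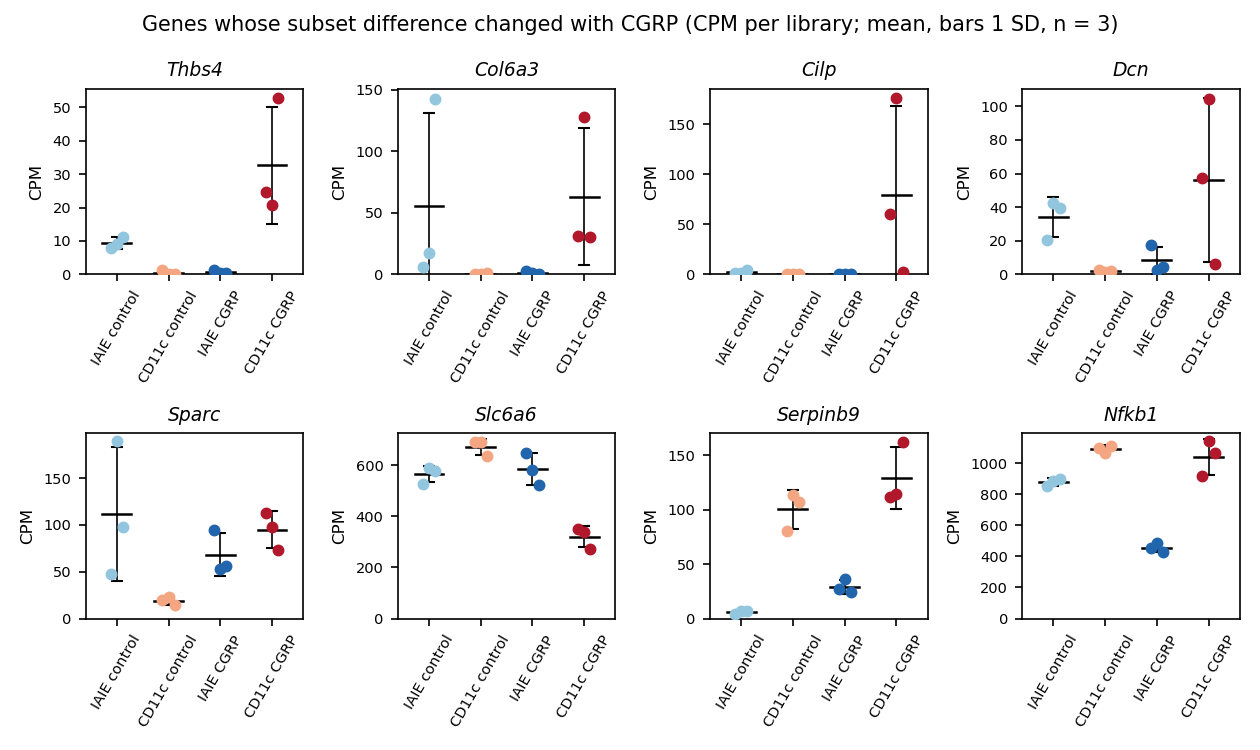
CPM of 8 interaction genes in each library of the 4 groups (y axis from 0), with the mean and bars of 1 SD (n = 3). *Thbs4* is highest in the CD11c libraries with CGRP, *Cilp* is high in 2 of those 3, and *Nfkb1* is lowest in the IAIE libraries with CGRP.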

How the data were processed

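RNA from sorted synovial cells was made into stranded total RNA libraries. The authors trimmed the reads and used HISAT2 (mm10) and featureCounts, and the deposited values are raw read counts for 26699 gene symbols. Versions, annotation and strand setting are not given in the sources used here. In the combined table, 6 columns without a label were not used.

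Genes were kept with edgeR's filterByExpr (minimum count 10, minimum total 15), scaled by TMM and fitted over all 12 libraries with a mean per group (edgeR 4.0.16 quasi-likelihood test, R 4.3.3). The study's methods used DESeq2 (1.42.0 here), which was an alternative. Adjusted p-values are Benjamini-Hochberg over 11927 genes, called under 0.05, two-sided. Values are log2 difference ± SE. Floors of 3 counts cover counting error only. All 51 lists and the comparison were chosen with earlier results of these data known. Named genes were the sort markers, the 10 each way with the largest difference and the 10 with the smallest p (mean of at least 5 CPM, no overlap, predicted genes left out), up to 4 called members each way per list, and 5 interaction genes each way; other members were named after their values were seen. Some genes that this rule names are not reported here. Transcript words and overlaps came from GENCODE vM21. The fits were tested on simulated counts.

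Same-numbered CGRP libraries deviated together (r of 0.331, 0.117 and 0.191 over 5411 genes), so the replicate blocks took the numbers to pair them. The main fit, which gave the SE and p-values printed here, had no such block. Same-numbered control libraries gave 0.0765, 0.0152 and 0.0075, and IAIE control 2 with CD11c control 3 gave 0.0756. Pairing was thus not seen in the controls, although the block over all 12 libraries pairs them too. Alternatives were RLE and upper-quartile scaling, both filters, replicate blocks, the compared libraries alone, DESeq2, limma-voom (3.58.1), 1 surrogate variable (sva 3.50.0), a log2 minimum of 1, each library left out and, chosen after seeing the data, thinning to the lowest total.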

Additional observations from a re-analysis of the deposited data

Results flagged for a closer look

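For 18 genes the subset difference itself differed between the conditions (edgeR quasi-likelihood test of the interaction, adjusted p under 0.05, n = 3 libraries a group). The value is the log2 difference, CD11c minus IAIE, with CGRP minus that without. For genes with libraries at 0 its size depends on the prior count. Among collagen chains it was 12.68 for *Col6a3*, 7.34 for *Col6a1*, 7.05 for *Col6a2* and 6.38 for *Col5a2*. Among glycoproteins and proteoglycans it was 10.44 for *Thbs4*, 12.5 for *Cilp*, 10.26 for *Fmod*, 10.04 for *Mgp*, 9.34 for *Prelp*, 6.96 for *Dcn* and 3.04 for *Sparc*. The other secreted proteins were *Fstl1* (6.15), *Htra1* (4.49), *Serpinf1* (4.21) and the laminin chain *Lamb2* (3.46).

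Intracellular and membrane proteins made up the rest, at 0.88 for *Nfkb1*, -1.12 for *Slc6a6* and -1.95 for *Serpinb9*. *Slc6a6* passed in each of the 22 other fits tried. *Htra1* lost its call in 11, *Cilp* in 10 and *Nfkb1* in 9 fits. *Fmod* in the CD11c libraries with CGRP was at 8.63, 17.8 and 17.6 CPM, and *Prelp* at 19.6, 18.3 and 1.42 CPM.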

How the results depend on the processing

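The number of genes that differed between subsets with CGRP, 2012 in the report, ranged from 1477 to 2122 when 1 library was left out, and 1028 (533 higher) also had a log2 difference of at least 1. Without CGRP the latter count was 1322 of 2526 (565 higher), and leaving out 1 library gave from 2046 to 2559. The interaction, 18 genes, moved most. It called 171 genes with every gene of at least 1 count, 5 with at least 10 counts in every library, 52 with the replicate block of treatment and number, 97 in DESeq2, 2 in limma-voom and 38 with 1 surrogate variable, and from 6 to 25 when 1 library was left out. The cause was not tested. The replicate block moved no other count over all genes by over 1.5 times (2265 with CGRP in all 12 libraries, 2700 in the compared libraries alone). Beyond the lists given in the report, it moved by over 1.5 times, among list counts that reached 4, those of class I genes (1 to 4 higher) and growth factors (2 to 4 higher), and *Acta2* and *Il33* lost their calls in all 12 libraries with it. *Il33*, whose log2 difference, CD11c minus IAIE with CGRP, ranged from -0.020 (without CD11c CGRP replicate 1, where it reversed) to 3.71 when 1 library was left out, was the exception in sign. Of 4613 log2 differences of 194 named genes in the other fits, 4379 kept direction and call, 233 kept direction only and 1 reversed. Depth limits genes under about 1 CPM, where the floor of 3 counts lies.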
